A study of Mus musculus with 11 samples.

Results

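The genes described here are the collagen genes of the mouse molar tooth germ, taken as every listed gene whose symbol has the form Col, a number, a and a number. This rule found 43 of the 16755 genes listed. All 43 have an entry in GENCODE vM21 (GRCm38), and they were grouped into fibrillar, cartilage, basement membrane, FACIT, beaded filament, transmembrane and other collagens.

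RNA had been sequenced from maxillary molar tooth germs of C57BL/6 embryos at E14.5, the cap stage, as 4 wild-type libraries, 4 Cilk1-/- libraries and 3 libraries of Cilk1-/- embryos that were also homozygous for the PCS1-MRCS1 deletion. The last of these, named the compound mutant below, carries the same Cilk1 deletion as the Cilk1-/- embryos. Cilk1 encodes a kinase of the primary cilium, the antenna of the cell through which Hedgehog signals are read. The PCS1-MRCS1 deletion removes the stretch from PCS1 to MRCS1, including both of these regulatory elements of the ligand gene Shh. No PCS1-MRCS1 deletion without the Cilk1 deletion was sequenced here, so its own effect on a collagen gene cannot be told apart from its effect in the absence of Cilk1. Both alleles are constitutive, which means that epithelium, mesenchyme and every other cell of the embryo carry them, and each biological replicate held n = 6, with no statement of whether germs or embryos were counted. The labels describe littermates and give 2 wordings of the extraction text, 1 for wild-type and Cilk1-/- replicates 1 to 3 and the other for replicate 4 of both and all 3 compound mutant libraries.

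Collagens are secreted proteins whose chains wind into a helix of repeated glycine-containing units. Fibrillar collagens (types I, II, III, V and XI) build the banded fibrils of loose mesenchyme, bone and cartilage, and FACIT collagens decorate the surface of those fibrils. Type IV collagen forms the network of the basement membrane between dental epithelium and mesenchyme, type VII anchors it to the stroma, and type VI forms beaded filaments around cells. Types II, IX and XI together form the cartilage fibril, and dental mesenchyme forms bone and dentin rather than cartilage.

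The values are deposited on a log2 scale, as log2(value + 1) of a normalised value that is taken to be FPKM, a measure per length of transcript, so that levels of different genes can be set side by side. A difference on this scale understates the change of a gene with a low value. Folds given with fitted differences, and used for calls, are on this scale too and are understated in the same way. Counts were not used here and the depth of the libraries is unknown, so precision can be judged only from replicate spread. The targeted gene, listed under its older symbol Ick, lay between 3.45 and 3.60 in wild type, between 2.72 and 2.86 in Cilk1-/- and between 2.60 and 2.67 in the compound mutant, in the order the labels give. The first principal component over all genes held 41.6% of the variance and set compound mutant replicate 1 apart at -48.5, while the remaining 10 fell from -6.63 to 11.2. The second component held 21.8% and placed compound mutant replicate 3 at the end of its range, at -28.9. Wild-type and Cilk1-/- libraries of the same number are not independent in these values, since their deviations from the genotype means had correlations of -0.741, -0.892, -0.848 and -0.792 over all genes for numbers 1 to 4. The standard errors and p-values below rest on a fit that treats the libraries as independent, and the p from a fit with a replicate block, a term for the number, is given where it changes a call.

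In wild-type tooth germs, type I and type III collagen stood far above the rest. Col1a1 had the highest mean level on the log2 scale, 9.18 ± 0.24 (SD, n = 4), followed by its partner chain Col1a2 with 8.80 ± 0.20 and by Col3a1 with 8.74 ± 0.21. These 3 genes made up 51.3% ± 2.85 (SD, n = 4) of the summed level of all collagen genes on the linear scale. The wild-type ranges of these 3 genes overlapped, and all 3 lay above the range of every other collagen gene. The next gene was Col6a2, a chain of type VI collagen, with 7.36 ± 0.10, and its range lay wholly above that of Col26a1, at 7.04 ± 0.08. Of the 42 neighbouring places in the order of wild-type means, 11 separated genes whose ranges did not touch. At the low end, 6 genes had a wild-type mean under 1, namely Col6a4, Col28a1, Col6a5, Col4a4, Col19a1 and Col4a3. By class, fibrillar collagens held 58.9% ± 2.45 of the linear sum in wild type, beaded filament collagens 13.8% ± 1.33, basement membrane collagens 11.3% ± 0.54 and cartilage collagens 3.09% ± 0.30.

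Collagen genes varied more between libraries of the same genotype than genes as a whole, and most in the compound mutant. Between its 3 libraries the median range was 0.59 for collagen genes and 0.25 for all genes on the log2 scale. In wild type these medians were 0.30 and 0.17, and in Cilk1-/- they were 0.33 and 0.16. Genes were not matched for level in these medians, and this scale compresses the ranges of genes with low values. A mean of at least 1 over the libraries was reached by 37 of 43 collagen genes and 13028 of all 16755 genes. The range between libraries was above 1 in 12 collagen genes in the compound mutant, in 2 in wild type and in 1 in Cilk1-/-. The widest ranges in the compound mutant were those of Col2a1 (4.79), Col9a1 (4.77) and Col11a2 (4.05), all 3 cartilage collagens.

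Loss of Cilk1 alone left no collagen gene called. With limma's test and Benjamini-Hochberg adjustment over all genes, at an adjusted p under 0.05 and a fold of at least 1.5, 0 of 43 members were called in Cilk1-/- against wild type, where 0.37% of all genes were called. Without the fold threshold 1 member passed, the type VI chain gene Col6a4, beside 2.44% of all genes. At an unadjusted p under 0.05, 8 members passed (6 higher and 2 lower), which is 18.6% of 43 beside 20.7% of all genes. The libraries of both genotypes did not overlap in 7 members, a share of 16.3% beside 20.9% of all genes. These were Col6a2 and Col6a4, which were lower, and Col6a6, Col9a1, Col12a1, Col24a1 and Col25a1, which were higher in all 4 Cilk1-/- libraries than in all 4 wild-type libraries. The median difference of the members was 0.16 on the log2 scale, beside 0.0032 for all genes, with 31 members above 0 and 12 below.

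In the compound mutant, 1 collagen gene was called against wild type and 3 others against Cilk1-/-. Against wild type the fibrillar gene Col24a1 was called higher, beside 1.25% of all genes called. Without the fold threshold, Col4a6 and Col6a2, both lower, also passed, so that 3 of 43 members stood beside 6.58% of all genes. Libraries did not overlap in 8 members, 18.6% of 43 beside 18% of all genes. Against Cilk1-/-, Col4a6, Col6a6 and Col12a1 were called lower, beside 0.543% of all genes called in either direction. The same 3 passed without the fold threshold, beside 3.33% of all genes, and libraries did not overlap in 7 members, beside 17% of all genes. The median differences of the members were 0.10 against wild type and 0.025 against Cilk1-/-, beside -0.0016 and 0.0028 for all genes. With the replicate number as a block, 0 members were called by limma in each of the 3 comparisons, and 6, 10 and 8 had an unadjusted p under 0.05. Among all 16755 genes 2319, 2889 and 2395 had such a p in that fit. The comparisons of both mutants with wild type share the wild-type libraries, and those of the compound mutant share its libraries, so their values are given side by side and not as separate evidence. Since the RNA is that of whole germs, fewer cells of a type and less RNA per cell cannot be told apart in any of these values.

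**Figure D1:**
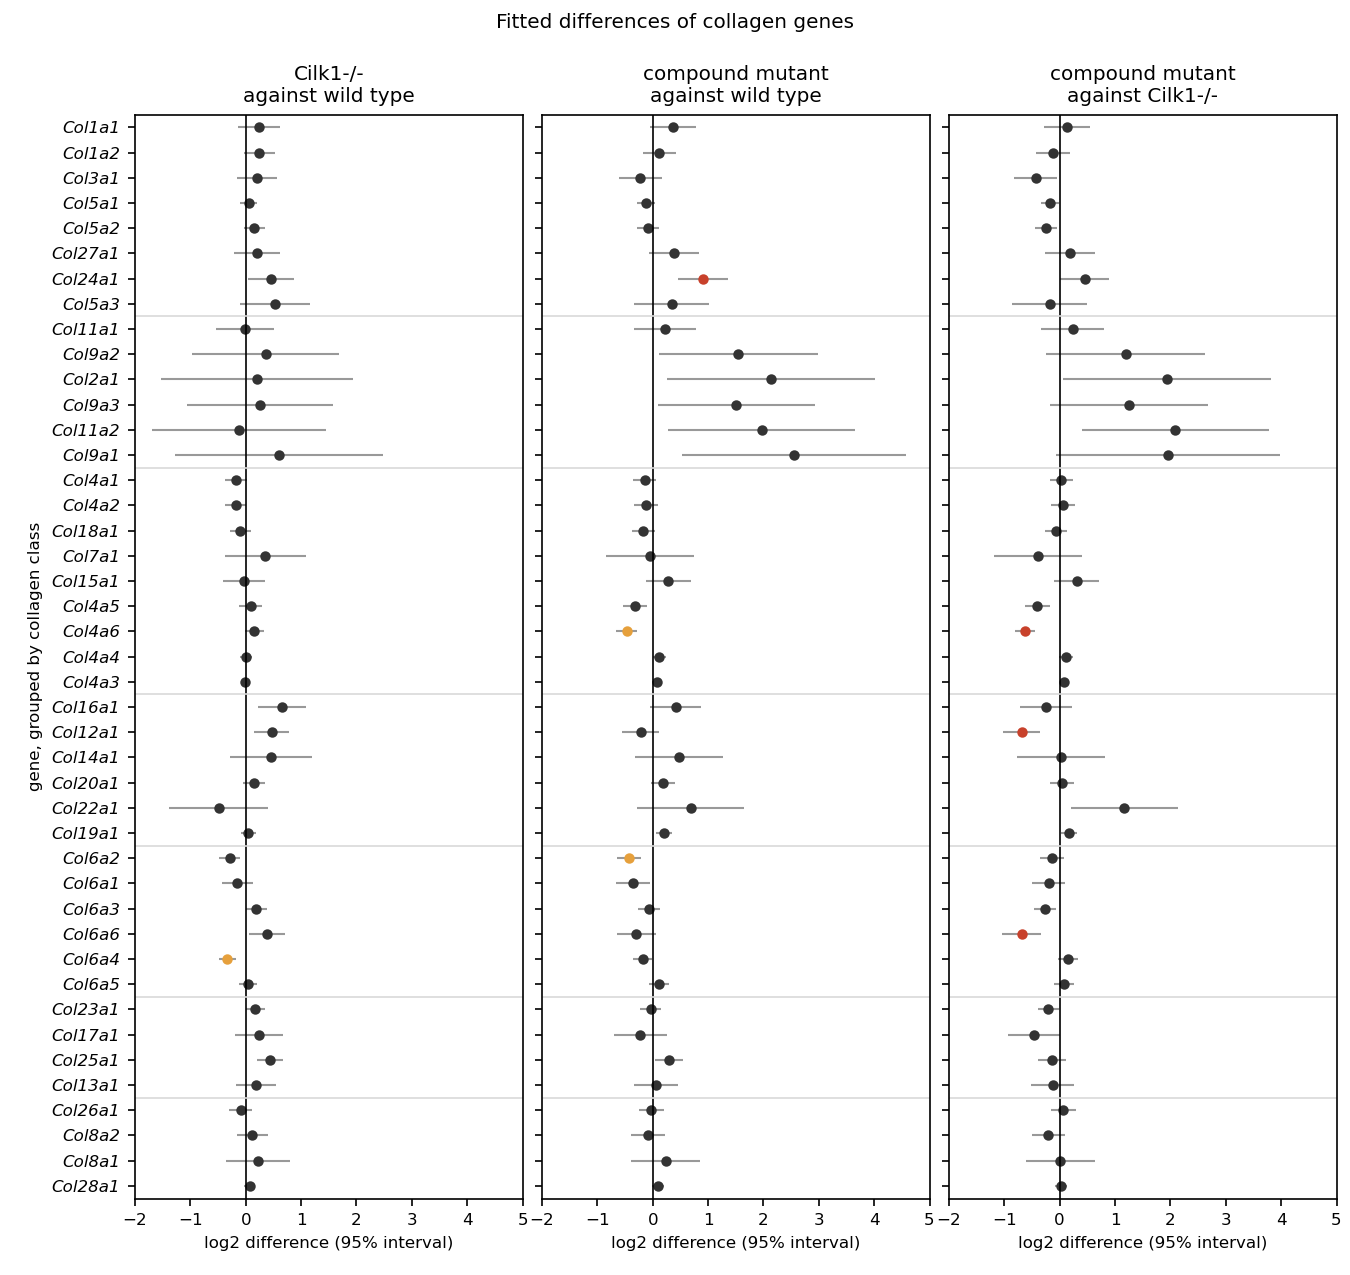
Fitted log2 differences (points) with 95% intervals (lines) of the 43 collagen genes in the 3 comparisons of genotypes, with red points for called genes and orange points for genes with an adjusted p under 0.05 and a fold under 1.5. The cartilage genes have the largest differences in the compound mutant and the widest intervals, while Col4a6, with a small difference, has a narrow one.

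The cartilage collagens had the largest differences of any class in the compound mutant, and 0 of 6 were called. At an unadjusted p under 0.05 in limma, 5 of 6 were higher than wild type, beside 26.7% of all genes in either direction, and 2 of 6 were higher than Cilk1-/-, beside 23.2% of all genes. Of the 7 cartilage collagens written in the list, 6 were listed: Col2a1, the chain of type II collagen, Col9a1, Col9a2 and Col9a3, the chains of type IX collagen on the surface of the type II fibril, and Col11a1 and Col11a2, chains of type XI collagen in its core. Col10a1, a marker of hypertrophic cartilage, was not analysed here. Both start regions of Col9a1 and that of Col11a2 are shown, because these genes and Col2a1 had the largest differences in the compound mutant. They are the 250 bases before the start in RefSeq (GRCm38.p6), and capitals mark a TATA box (TATAAA) or a CCAAT box (CCAAT) found on either strand. Col9a1 lies at chr1:24177610-24252684, on the plus strand, and Col11a2 at chr17:34039437-34066685, also on the plus strand. The region of the second Col9a1 start lies inside the gene, in an intron of the longer transcript apart from its last bases, and the other regions lie outside annotated genes of GENCODE vM21.
Col9a1, first start, chr1:24177360-24177609: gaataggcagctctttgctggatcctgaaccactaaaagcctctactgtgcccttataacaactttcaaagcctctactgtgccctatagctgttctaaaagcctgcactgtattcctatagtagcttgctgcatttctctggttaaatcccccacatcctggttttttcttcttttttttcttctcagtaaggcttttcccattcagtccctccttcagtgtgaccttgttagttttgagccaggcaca
Col9a1, second start, chr1:24194953-24195202: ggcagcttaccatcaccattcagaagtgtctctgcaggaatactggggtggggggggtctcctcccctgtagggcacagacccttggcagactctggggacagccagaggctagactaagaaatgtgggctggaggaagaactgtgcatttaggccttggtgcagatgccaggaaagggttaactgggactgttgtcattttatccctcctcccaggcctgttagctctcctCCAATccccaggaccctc
Col11a2, chr17:34038888-34039137: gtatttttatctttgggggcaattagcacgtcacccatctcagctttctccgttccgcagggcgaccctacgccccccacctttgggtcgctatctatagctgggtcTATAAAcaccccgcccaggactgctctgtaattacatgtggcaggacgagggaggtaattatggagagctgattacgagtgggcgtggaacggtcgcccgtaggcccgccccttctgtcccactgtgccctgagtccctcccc
TATAAA was found in 12.4% of 32851 RefSeq windows of this length and CCAAT in 33.8%, and in 4 and 13 of the 37 windows of the 34 members that have one. The core recognised by SOX proteins, searched as ACAAAG or ACAATG, was in 25.2% of all windows and in 0 of the 5 windows of the 4 cartilage members that have one. The deposited values are 1 per gene and do not separate the starts of Col9a1.

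Col2a1 was listed at 3.62, 3.72, 3.58 and 3.62 in wild type, at 4.13, 3.83, 3.94 and 3.44 in Cilk1-/- and at 8.62, 4.88 and 3.82 in compound mutant replicates 1 to 3. Every compound mutant library was above every wild-type library, but replicate 3 lay within the Cilk1-/- range. The fitted difference from wild type was 2.14 ± 0.85 (SE) with an adjusted p of 0.145 in limma, and that from Cilk1-/- was 1.94 ± 0.85 with an adjusted p of 0.205.

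Col9a1 was listed at 1.12, 1.49, 1.15 and 0.88 in wild type, at 2.13, 1.49, 1.83 and 1.58 in Cilk1-/- and at 6.83, 2.06 and 2.25 in the compound mutant. All 7 mutant libraries lay above all 4 wild-type libraries, the closest pair being Cilk1-/- replicate 2 and wild-type replicate 2, and compound mutant replicate 1 lay far above the other 10. The difference from wild type was 0.60 ± 0.85 (adjusted p = 0.747) in Cilk1-/- and 2.55 ± 0.91 (adjusted p = 0.115) in the compound mutant. The first interval, from -1.28 to 2.47, uses a spread estimated with the compound mutant libraries included, and with the compound mutant left out the same 0.60 had an adjusted p of 0.0372 in limma. That fit also treats the libraries as independent, and it called 130 of all genes, beside 62 with the compound mutant included. With the replicate block, in a fit of all 11 libraries, the adjusted p was 0.786.

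Col11a2 was listed at 2.31, 2.11, 3.57 and 2.45 in wild type, at 2.73, 3.13, 1.77 and 2.33 in Cilk1-/- and at 6.59, 4.61 and 2.54 in the compound mutant. Compound mutant replicates 1 and 2 were above all other libraries and replicate 3 was inside the wild-type range, whose top was replicate 3. The differences from wild type and Cilk1-/- were 1.97 ± 0.76 (adjusted p = 0.138) and 2.09 ± 0.76 (adjusted p = 0.142).

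Col9a2 ran from 3.37 to 4.10 in wild type and from 3.77 to 4.33 in Cilk1-/-, and was 7.33, 3.73 and 4.60 in the compound mutant. Col9a3 ran from 3.10 to 3.67 and from 3.45 to 3.76, and was 6.99, 3.36 and 4.24. In both genes compound mutant replicates 1 and 3 were above all 8 wild-type and Cilk1-/- libraries and replicate 2 was inside the wild-type range. Col11a1, the cartilage collagen with the highest wild-type mean, was listed at 5.48, 5.62, 5.62 and 5.68 in wild type, at 5.61, 5.64, 5.60 and 5.51 in Cilk1-/- and at 6.69, 5.35 and 5.44 in the compound mutant. Here replicate 1 was above and replicates 2 and 3 were below all other libraries, and without replicate 1 the difference from wild type changed from 0.22 to -0.21.

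On the linear scale, compound mutant replicate 1 exceeded the wild-type mean 89.6-fold for Col9a1, 34.3-fold for Col2a1, 16.8-fold for Col11a2, 13.5-fold for Col9a3, 13.3-fold for Col9a2 and 2.15-fold for Col11a1. Replicate 2 had folds of 4.14 for Col11a2, 2.52 for Col9a1 and 2.50 for Col2a1, and of 1.02, 0.99 and 0.83 for Col9a2, Col9a3 and Col11a1. Replicate 3 had folds of 2.98 for Col9a1, 1.93 for Col9a2 and 1.92 for Col9a3, and of 1.15, 0.89 and 0.85 for Col2a1, Col11a1 and Col11a2. Col9a1 was the only cartilage collagen more than 2-fold above the wild-type mean in all 3 libraries. Its wild-type mean was low, 1.26 on the linear scale, and Cilk1-/- replicate 1, at 3.39, was above compound mutant replicate 2, at 3.18. Calls in this class turned on which compound mutant library was left out. Without replicate 1, Col9a1 was called against wild type, with a difference of 0.996 and an adjusted p of 0.0237 in limma. Without replicate 2, Col9a1 (adjusted p = 0.0345), Col9a2 (adjusted p = 0.0257) and Col9a3 (adjusted p = 0.0244) were called, with differences from 2.26 to 3.38. Without replicate 3, Col2a1 and Col11a2 were called against wild type, with differences of 3.12 (adjusted p = 0.0353) and 2.99 (adjusted p = 0.0184), and also against Cilk1-/-. Calls over all genes moved too, with 171, 671 and 339 against wild type without replicates 1, 2 and 3, beside 209 with every library. Against Cilk1-/- they were 360 without replicate 3, beside 91. The summed linear level of the 6 cartilage genes was 83.9 to 95.8 in wild type, 86.9 to 102 in Cilk1-/- and 988, 116 and 105 in the compound mutant.

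Markers of chondrocytes, which make cartilage, had their highest summed level in compound mutant replicate 1, as the cartilage collagens did. The summed linear level of the markers was 22.6 to 28.8 in wild type and 26.7 to 34.4 in Cilk1-/-. It was 248, 28.9 and 45.8 in compound mutant replicates 1 to 3. Replicate 2, in which Col2a1 and Col11a2 were raised, thus had a marker sum inside the Cilk1-/- range. Of 12 listed chondrocyte markers, 10 were above all 8 wild-type and Cilk1-/- libraries in replicate 1, 3 in replicate 2 and 7 in replicate 3. In replicate 3, 2 others were below all 8, while 0 were below in replicates 1 and 2. Of all genes, 28.3%, 18.5% and 21.8% were above all 8 in replicates 1 to 3, and 25.9%, 20.9% and 24.5% were below. Acan, the core protein of the cartilage proteoglycan aggrecan, was 5.03, 0.70 and 1.60 in these libraries and between 0.0025 and 0.83 in the other 8. Sox9, the transcription factor of the chondrocyte lineage, was 5.01, 3.36 and 4.16, against 3.30 to 3.76 in the other 8. The markers that did not stand out in replicate 1 were Ucma and Sox6. Replicate 1 also had the highest sums of 11 neuron markers (258, against 42.1 to 62.4 in wild type and Cilk1-/-) and of 8 Schwann cell markers (48.0, against 21.4 to 28.1), and its sum of 11 dental mesenchyme markers, 546, was under the lowest of the 8, 801. Replicate 3 had a neuron marker sum of 89.4, above those 8, and a dental mesenchyme marker sum of 696, below them, while its Schwann cell sum of 25.8 was inside their range, and the sums of replicate 2 were 61.0, 941 and 23.7. The part of other tissue in the cartilage collagen values was not tested.

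**Figure D2:**
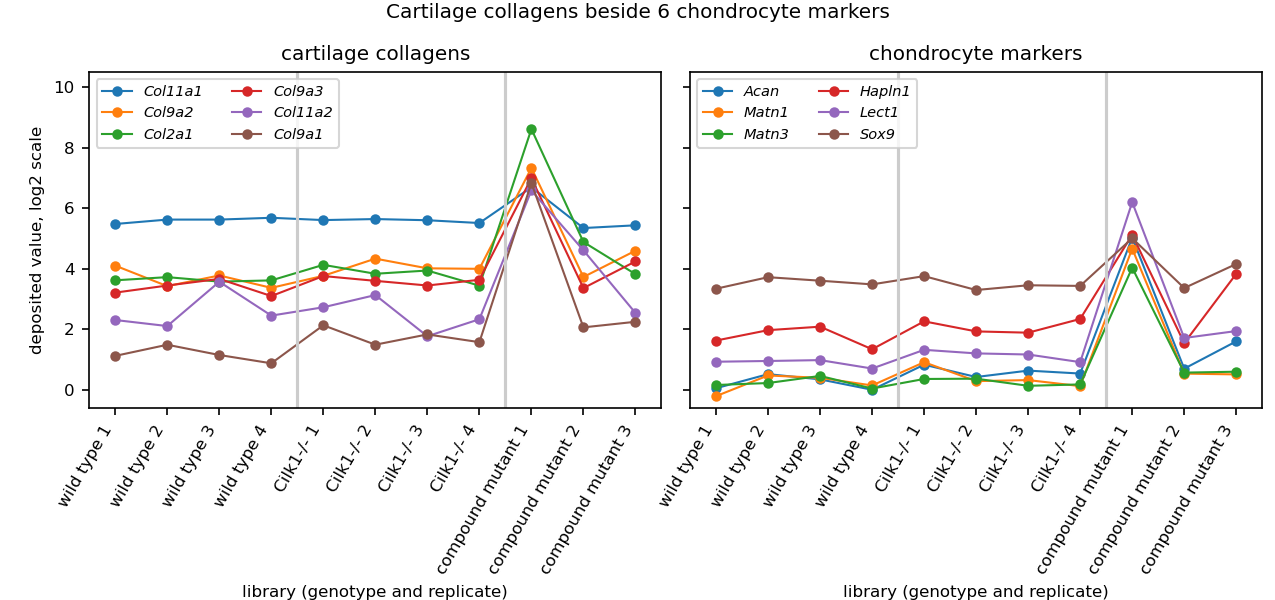
Deposited values (log2 scale) of the 6 listed cartilage collagen genes (left) and of 6 of the 12 chondrocyte markers (right) in each library, in the order wild type, Cilk1-/- and compound mutant. Ucma and Sox6, which did not stand out in replicate 1, are not among the markers drawn. All 12 lines peak in compound mutant replicate 1, and the lines of Col11a2 and Col2a1 are also raised in replicate 2, while those of Col9a2, Col9a3, Hapln1 and Acan are raised in replicate 3.

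The genes outside the collagens whose values were most like the mean of the 6 cartilage collagens over the 11 libraries were Ccdc146, Cdkl4, Matn3, Lect1 and Mfi2. Pearson's r was between 0.994 and 0.997, and without compound mutant replicate 1 it was between 0.890 and 0.973 over 10 libraries. Matn3 encodes matrilin-3, a protein of the cartilage matrix, and Lect1 encodes chondromodulin. Both are on the list of chondrocyte markers used above. Outside compound mutant replicate 1, Ccdc146, Cdkl4, Mfi2 and Matn3 were near the floor, at most 0.14, 0.32, 0.35 and 0.60 on the log2 scale.

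The fibrillar collagens outside cartilage were Col1a1, Col1a2, Col3a1, Col5a1, Col5a2, Col5a3, Col24a1 and Col27a1. In Cilk1-/- all 8 differences from wild type were above 0, between 0.053 and 0.52, and 0 were called. Col1a1, which encodes the more abundant chain of type I collagen, was listed at 9.32, 8.91, 9.43 and 9.05 in wild type, at 9.07, 9.71, 9.35 and 9.54 in Cilk1-/- and at 9.17, 9.66 and 9.81 in the compound mutant. The genotypes overlapped, and the difference of the compound mutant from wild type was 0.37 ± 0.19 (SE, adjusted p = 0.235 in limma). Col5a3, a minor chain of type V collagen, had the largest fibrillar difference in Cilk1-/- (0.52 ± 0.28, adjusted p = 0.328). It was listed at 1.47, 1.01, 1.35 and 0.84 in wild type, at 1.31, 1.87, 1.63 and 1.95 in Cilk1-/- and at 1.47, 0.78 and 2.29 in the compound mutant, so that the compound mutant libraries held both the lowest and the highest of the 11 values.

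Col24a1, a fibrillar collagen linked to bone formation, was the only member called higher. Col24a1 was listed at 1.95, 1.62, 1.85 and 1.72 in wild type, at 1.998, 2.44, 2.24 and 2.26 in Cilk1-/- and at 3.06, 2.91 and 2.09 in the compound mutant. All 7 mutant libraries were above all 4 wild-type libraries, while compound mutant replicate 3 lay within the Cilk1-/- range. Mean linear levels were 2.45 in wild type and 5.71 in the compound mutant. The difference of the compound mutant from wild type was 0.90 ± 0.20 (SE), a 1.87-fold change on the deposited scale. Its adjusted p was 0.0302 in limma and 0.148 with the replicate block. Within the set of libraries that share an extraction text, where wild type and Cilk1-/- have 1 library each, the compound mutant mean exceeded wild type by 0.97, but with a term for the extraction text the adjusted p was 0.212, and in a fit of only wild type and the compound mutant it was 0.121, so that both ended the call. In Cilk1-/- the difference was 0.45 ± 0.19 with an adjusted p of 0.204. The call was lost without wild-type replicate 2, 3 or 4 or compound mutant replicate 1, with a highest adjusted p of 0.0874. Col24a1 lies at chr3:145292472-145552011, on the plus strand, and the 250 bases before its start hold neither TATAAA nor CCAAT.
Col24a1, chr3:145292222-145292471: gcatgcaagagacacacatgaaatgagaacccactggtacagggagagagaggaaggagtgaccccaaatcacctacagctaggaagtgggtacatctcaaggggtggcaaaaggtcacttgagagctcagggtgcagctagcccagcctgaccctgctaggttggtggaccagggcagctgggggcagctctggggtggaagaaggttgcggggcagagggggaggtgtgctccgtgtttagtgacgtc

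The basement membrane collagens were Col4a1 to Col4a6, Col7a1, Col15a1 and Col18a1. The major chains of type IV collagen, Col4a1 and Col4a2, were high in every library and 0 comparisons called them. Col4a1 was listed at 6.98, 6.73, 6.81 and 6.87 in wild type, at 6.49, 6.81, 6.72 and 6.67 in Cilk1-/- and at 6.70, 6.54 and 6.87 in the compound mutant. Its difference from wild type was -0.18 ± 0.089 (adjusted p = 0.288) in Cilk1-/- and -0.15 ± 0.096 (adjusted p = 0.348) in the compound mutant. Col4a2, which overlaps the start of Col4a1 by 22 bases on the opposite strand of chromosome 8, had differences of -0.18 and -0.12. Col4a3 and Col4a4, the chains of mature kidney and lung basement membranes, had a wild-type mean of 0.032 and 0.051.

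Col4a6, a minor chain of type IV collagen that pairs with Col4a5, was lower in the compound mutant than in both other genotypes. Col4a6 was listed at 2.33, 2.18, 2.36 and 2.25 in wild type, at 2.22, 2.55, 2.44 and 2.52 in Cilk1-/- and at 1.88, 1.73 and 1.80 in the compound mutant. Those of the compound mutant lay close together and below all 8 others, while the wild-type and Cilk1-/- ranges overlapped. The difference was -0.47 ± 0.085 (SE) from wild type, with a fold under the threshold on the deposited scale and an adjusted p of 0.0151 in limma (adjusted p = 0.127 with the block). From Cilk1-/- it was -0.63 ± 0.085, a 1.54-fold reduction, with an adjusted p of 0.00915, and with the replicate block this adjusted p was 0.138. Both adjusted p-values stayed under 0.05 in each of the 11 fits that left out 1 library, at most 0.0472 and 0.0342. They did not in fits of only the genotypes compared, with an adjusted p of 0.0623 against wild type and 0.0898 against Cilk1-/- in limma, or with a term for the extraction text, with adjusted p-values of 0.154 and 0.147. An exact permutation test of Col4a6 gave a two-sided p of 0.0571 in both comparisons, the smallest that 3 against 4 libraries allow. Within the set of libraries with a shared extraction text, the differences were -0.44 from wild type and -0.71 from Cilk1-/-. Mean linear levels of Col4a6 were 3.86 in wild type, 4.42 in Cilk1-/- and 2.50 in the compound mutant. With a pseudocount of 0.1 Col4a6 was also called against wild type.

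Col4a5 lies head to head with Col4a6 on chromosome X, with 1308 bases between the annotated genes. It ran from 3.40 to 3.70 in wild type, from 3.47 to 3.79 in Cilk1-/- and was 3.45, 3.15 and 3.18 in the compound mutant. Replicates 2 and 3 were below all 8 other libraries and replicate 1 was not. Its difference was -0.31 ± 0.099 from wild type (adjusted p = 0.0817 in limma) and -0.40 ± 0.099 from Cilk1-/- (adjusted p = 0.0543), so it was not called. Its start region holds CCAAT, while that of Col4a6, shown because its gene was called lower in the compound mutant, holds neither motif.
Col4a6, chrX:141474077-141474326, minus strand: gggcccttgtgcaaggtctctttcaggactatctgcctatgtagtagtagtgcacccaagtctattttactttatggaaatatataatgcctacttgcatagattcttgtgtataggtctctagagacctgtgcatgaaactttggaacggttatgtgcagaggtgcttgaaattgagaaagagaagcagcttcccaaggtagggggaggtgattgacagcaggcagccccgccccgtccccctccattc

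Of the other basement membrane collagens, Col7a1, which forms the anchoring fibrils under epithelia, had the widest range in the compound mutant, with 3.94, 3.94 and 5.42 in replicates 1 to 3. Col17a1, a transmembrane collagen of the hemidesmosome, was also highest in replicate 3, with 4.27, 4.20 and 5.04. The summed linear level of 11 dental epithelium markers was 633, 804 and 1315 in these libraries, against 919 to 1221 in wild type and Cilk1-/-. In replicates 1 to 3, 3, 0 and 5 of these markers were above all 8 wild-type and Cilk1-/- libraries, and 7, 3 and 1 were below. The shares of all genes were 28.3%, 18.5% and 21.8% above and 25.9%, 20.9% and 24.5% below. The part of epithelium in the values of Col7a1 and Col17a1 was not tested. Col15a1 and Col18a1, core proteins of proteoglycans in basement membranes, were not called in any comparison, with differences between -0.17 and 0.31.

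The FACIT collagens were Col12a1, Col14a1, Col16a1, Col19a1, Col20a1 and Col22a1. Col16a1, which had the highest wild-type mean of this class, also had the largest difference of all members in Cilk1-/-. Col16a1 was listed at 5.96, 5.48, 5.76 and 5.54 in wild type, at 5.96, 6.58, 6.36 and 6.47 in Cilk1-/- and at 6.38, 5.57 and 6.35 in the compound mutant. Cilk1-/- replicates 2 to 4 were above all wild-type libraries, and Cilk1-/- replicate 1 was just below wild-type replicate 1. The difference was 0.66 ± 0.20 (SE), a 1.58-fold change, with an adjusted p of 0.10 in limma, so it was not called. With the compound mutant left out of the fit, which still treats the libraries as independent, the adjusted p was 0.0191. With the replicate block, in a fit of all 11 libraries, it was 0.266.

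Col12a1, a FACIT of dense connective tissue and periosteum, was lower in the compound mutant than in Cilk1-/-. Col12a1 was listed at 5.56, 5.53, 5.40 and 5.55 in wild type, at 5.80, 6.00, 6.15 and 5.97 in Cilk1-/- and at 5.19, 4.95 and 5.74 in the compound mutant. All Cilk1-/- libraries were above all libraries of the other genotypes, while compound mutant replicates 1 and 2 were below and replicate 3 above the wild-type range. The difference of the compound mutant from Cilk1-/- was -0.68 ± 0.15, a 1.61-fold reduction, with an adjusted p of 0.0417 in limma and an adjusted p of 0.191 with the replicate block. That of Cilk1-/- from wild type was 0.47 ± 0.14 with an adjusted p of 0.102. The call was lost in 9 of 11 fits that left out 1 library, namely without any wild-type or Cilk1-/- library or without compound mutant replicate 1, and the adjusted p over the 11 fits ran from 0.00298 to 0.113. Within the set with a shared extraction text the difference was -0.67, and a term for that text (adjusted p = 0.299 in limma) or a fit of only the mutants (adjusted p = 0.162) also ended the call.

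Col22a1, a FACIT of tissue junctions, had 1 high library in each of 2 genotypes. It was listed at 0.87, 0.80, 1.85 and 1.12 in wild type, at 0.90, 1.12, 0.14 and 0.54 in Cilk1-/- and at 1.22, 3.03 and 1.28 in the compound mutant. Wild-type replicate 3 and compound mutant replicate 2 were the highest of their genotypes, and Cilk1-/- replicate 3 was the lowest of all 11 libraries. The difference between the compound mutant and Cilk1-/- was 1.17 ± 0.44 (adjusted p = 0.148 in limma). Ibsp, which encodes bone sialoprotein, was 6.47 and 7.42 in the first 2 of these libraries and 2.88 in the last, and between 2.93 and 5.23 in the other 8. The summed linear level of 10 osteoblast markers, Ibsp among them, was 270 in wild-type replicate 3 and 361 in compound mutant replicate 2. It was between 117 and 225 in the other 9, with 117 in compound mutant replicate 1, where Col11a2 was highest. In compound mutant replicates 1 to 3, 0, 4 and 2 of the 10 were above all 8 wild-type and Cilk1-/- libraries, and 4, 0 and 3 were below. The shares of all genes were 28.3%, 18.5% and 21.8% above and 25.9%, 20.9% and 24.5% below. The part of osteoblast RNA in the values of Col22a1 and Col11a2 was not tested.

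The beaded filament collagens were the 6 chains of type VI collagen, of which Col6a1, Col6a2 and Col6a3 were high and Col6a4, Col6a5 and Col6a6 low. Col6a2 had the highest wild-type mean of the class and was lower in both mutants. Col6a2 was listed at 7.45, 7.34, 7.22 and 7.41 in wild type, at 6.89, 7.11, 7.20 and 7.05 in Cilk1-/- and at 6.72, 7.07 and 6.98 in the compound mutant. All 7 mutant libraries were below all 4 wild-type libraries, and the closest were wild-type replicate 3 and Cilk1-/- replicate 3. The difference from wild type was -0.43 ± 0.096 (SE) in the compound mutant, with an adjusted p of 0.0296 in limma (adjusted p = 0.144 with the block) and a fold under the threshold, and -0.29 ± 0.089 in Cilk1-/- with an adjusted p of 0.103. The first p rose to 0.05 or more without wild-type replicate 1, 2 or 4 or compound mutant replicate 1, with a highest adjusted p of 0.0888, and it was 0.104 in a fit of only these genotypes and 0.205 with a term for the extraction text. Its partner chains had differences in the compound mutant of -0.35 ± 0.14 (Col6a1, adjusted p = 0.142) and -0.070 ± 0.090 (Col6a3, adjusted p = 0.650).

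Col6a4, Col6a5 and Col6a6 encode alternative chains of type VI collagen and lie beside each other on the minus strand of chromosome 9. Col6a4 was listed at 0.77, 0.50, 0.49 and 0.52 in wild type, at 0.11, 0.32, 0.29 and 0.25 in Cilk1-/- and at 0.44, 0.43 and 0.30 in the compound mutant. All 7 mutant libraries were below the wild-type range. Mean linear levels were 0.49 in wild type and 0.18 in Cilk1-/-, near the floor of the scale. The fold of Cilk1-/- against wild type was under the threshold on the deposited scale, and with a pseudocount of 0.1 the gene was called. The difference on the deposited scale was -0.33 ± 0.073 with an adjusted p of 0.0451 in limma (adjusted p = 0.198 with the block). Leaving out any wild-type or Cilk1-/- library raised this adjusted p to 0.05 or more, up to 0.128, and a term for the extraction text raised it to 0.0876.

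Col6a6 was listed at 1.21, 0.88, 0.87 and 1.09 in wild type, at 1.23, 1.55, 1.56 and 1.25 in Cilk1-/- and at 0.74, 1.05 and 0.36 in the compound mutant. Cilk1-/- was above the other genotypes in all 4 libraries, and the compound mutant was below Cilk1-/- in all 3. Mean linear levels were 1.65 in Cilk1-/- and 0.67 in the compound mutant. The difference of the compound mutant from Cilk1-/- was -0.68 ± 0.16, a 1.61-fold reduction on the deposited scale. Its adjusted p was 0.0475 in limma and 0.215 with the replicate block. The call was lost in 10 of 11 fits that left out 1 library, all but that without compound mutant replicate 2, with a highest adjusted p of 0.126. Within the set with a shared extraction text the difference was -0.54. The Col6a6 call was also lost with a term for that text (adjusted p = 0.329 in limma), in a fit of only the mutants (adjusted p = 0.159), and by a small margin with a filter at a mean of at least 1 (adjusted p = 0.0521), a pseudocount of 0.1 (adjusted p = 0.0554) and quantile normalisation (adjusted p = 0.0515). Col6a5 had a wild-type mean of 0.12 and was not called.

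**Figure D3:**
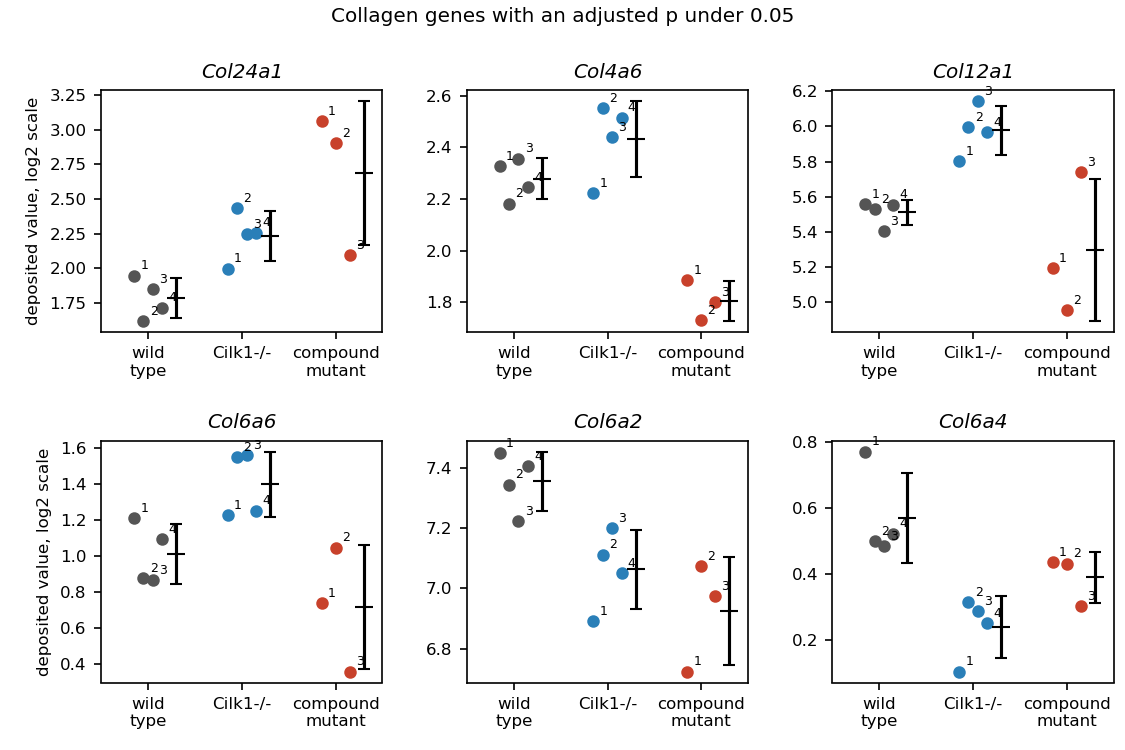
Deposited values (log2 scale, with a separate axis range for each gene) of the 6 collagen genes with an adjusted p under 0.05 in any comparison, by genotype, with a point and replicate number for each library and bars for the mean ± SD. The compound mutant points of Col4a6 lie together below the other 8, and those of Col24a1, Col12a1 and Col6a6 are spread.

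The transmembrane collagens Col13a1, Col17a1, Col23a1 and Col25a1 and the remaining collagens Col8a1, Col8a2, Col26a1 and Col28a1 had 0 called members in limma. At an unadjusted p under 0.05 each comparison had 1 gene of the first class and 0 of the second. Of all genes, 20.7%, 26.7% and 23.2% passed in the 3 comparisons. Col23a1 had the highest wild-type mean of the first class, level with Col17a1. It was listed at 4.92, 4.67, 4.58 and 4.75 in wild type, at 4.76, 4.95, 4.99 and 4.89 in Cilk1-/- and at 4.57, 4.75 and 4.76 in the compound mutant, and the genotypes overlapped. Col25a1, which motor axons require to enter muscle, was 0.44 ± 0.10 (SE) higher in Cilk1-/-, with an adjusted p of 0.0555 in limma and no overlap with wild type. It ran from 2.59 to 3.01 in wild type, from 3.04 to 3.29 in Cilk1-/- and from 2.85 to 3.17 in the compound mutant. The sum of 15 skeletal muscle markers was 15.2 to 46.5 in wild type, 31.7 to 86.1 in Cilk1-/- and 12.3 to 14.8 in the compound mutant. The part of muscle in the values of Col25a1 was not tested. Col26a1, which had the highest wild-type mean of the last class, was listed at 7.13, 6.99, 6.96 and 7.08 in wild type, at 6.90, 7.01, 7.01 and 6.87 in Cilk1-/- and at 6.80, 7.30 and 6.96 in the compound mutant. The compound mutant held its lowest and highest value, and its differences were between -0.091 and 0.069 in the 3 comparisons. Col8a1 and Col8a2, chains of the network-forming type VIII collagen, and Col28a1 had differences between -0.21 and 0.23.

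The 3 compound mutant libraries differed from each other in which collagen genes left the range of the other 8 libraries. Replicate 1 was above all 8 wild-type and Cilk1-/- libraries in 16 of 43 members, beside 28.3% of all genes, and below all 8 in 14, beside 25.9% of all genes. The 16 included all 6 cartilage genes, Col24a1, Col27a1, Col14a1 and Col15a1, and the 14 included Col3a1, Col5a1, Col5a2, Col6a1, Col6a2 and Col12a1. Replicate 2 was above in 6 members, beside 18.5% of all genes, and below in 13, beside 20.9% of all genes. The 6 were Col2a1, Col11a2, Col22a1, Col24a1, Col26a1 and Col4a3, and the 13 included Col3a1, Col4a5, Col4a6, Col5a3, Col8a1, Col12a1, Col14a1 and Col17a1. Replicate 3 was above in 14 members, beside 21.8% of all genes, and below in 7, beside 24.5% of all genes. The 14 included Col1a1, Col5a3, Col7a1, Col8a1, Col14a1 and the 3 type IX genes, and the 7 were Col4a5, Col4a6, Col5a1, Col6a3, Col6a6, Col8a2 and Col11a1. In replicate 3 the sum of 10 erythroid markers was 1060, against 2892 or more in the other 10 libraries. Col4a3, at levels near 0, was the only member above all 8 in each of the 3 libraries, and Col4a6 and Col5a1 were the only ones below all 8 in each. Col5a3, Col7a1, Col8a1, Col11a1, Col14a1, Col26a1 and Col27a1 each lay above all 8 in at least 1 compound mutant library and below all 8 in another. The shares of all genes with these patterns over several libraries were not counted, so the patterns cannot be read as particular to collagen genes.

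**Figure D4:**
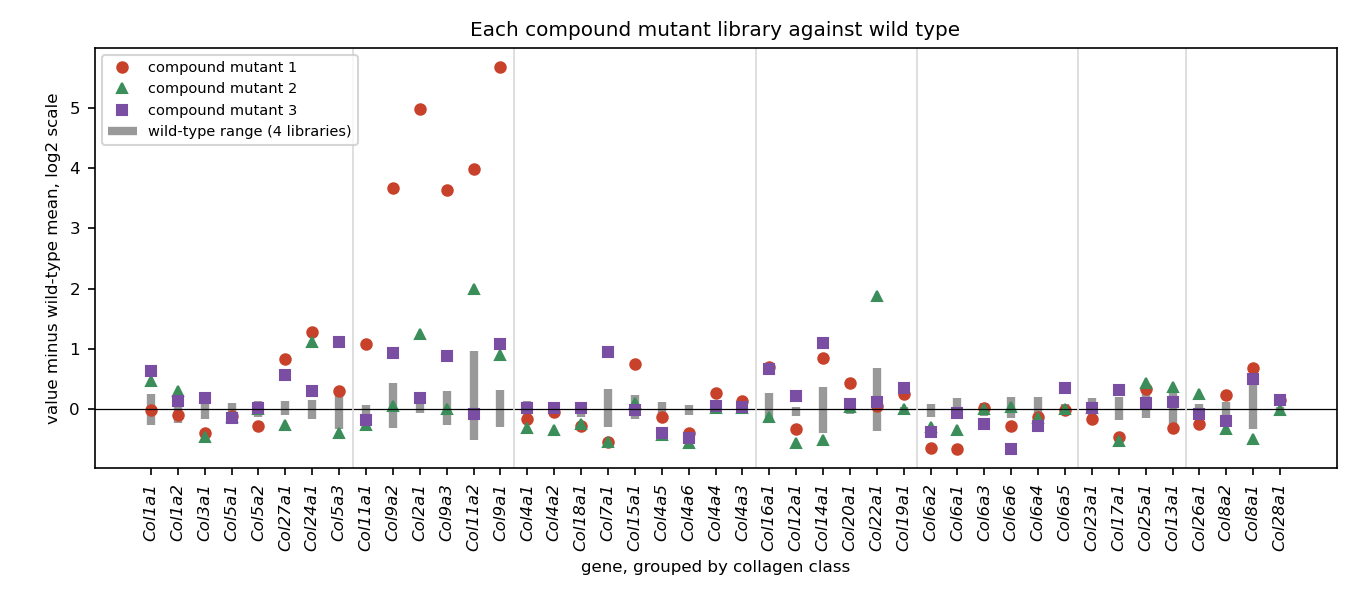
Each compound mutant library's value minus the wild-type mean for each collagen gene (log2 scale), with a symbol for each library and a grey bar for the range of the 4 wild-type libraries. The symbols of the cartilage genes reach up to 5.67 in replicate 1, those of Col4a6 lie together below the grey bar, and those of Col22a1 are set apart by replicate 2 alone.

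Of 57 listed genes that make, process, bind or break down collagen, 2 were called in Cilk1-/- against wild type, 4 in the compound mutant against wild type and 1 in the compound mutant against Cilk1-/-, all higher, and with the replicate block 0 were called in each, with 8, 13 and 14 at an unadjusted p under 0.05. The shares of all genes called are those given above, 0.37%, 1.25% and 0.543%. With the block, 2319, 2889 and 2395 of all 16755 genes had an unadjusted p under 0.05 in limma.

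Among 20 folding and modification genes, P4ha1 and P4ha2, the catalytic subunits of prolyl 4-hydroxylase that stabilise the triple helix, were higher in the compound mutant. P4ha1 was listed at 4.68, 4.27, 4.70 and 4.33 in wild type, at 4.71, 5.21, 4.80 and 5.12 in Cilk1-/- and at 5.45, 5.42 and 5.08 in the compound mutant. All 7 mutant libraries were above all 4 wild-type libraries. Its difference from wild type was 0.82 ± 0.15 (SE, adjusted p = 0.0177 in limma, adjusted p = 0.125 with the block) in the compound mutant and 0.47 ± 0.14 (adjusted p = 0.104) in Cilk1-/-. P4ha2 was 0.66 ± 0.12 higher in the compound mutant (adjusted p = 0.0139, adjusted p = 0.118 with the block), with 5.06, 5.02 and 4.85 against 4.14 to 4.48 in wild type. Colgalt2, a collagen galactosyltransferase, was 0.60 ± 0.098 higher in Cilk1-/- (adjusted p = 0.0167, adjusted p = 0.149 with the block), with 1.78 to 2.11 against 1.28 to 1.66, and this 1.52-fold change is close to the threshold. Without wild-type or Cilk1-/- replicate 2, 3 or 4 the adjusted p of Colgalt2 rose to 0.05 or more, up to 0.0694. That of P4ha1 did so without wild-type replicate 2 or 4, up to 0.0608, and that of P4ha2 in none of the 11 fits. In fits of only wild type and the compound mutant P4ha1 and P4ha2 had adjusted p-values of 0.0703 and 0.0576 in limma, and with a term for the extraction text 0.166 and 0.145. Leprel1, a prolyl 3-hydroxylase gene, was 0.35 ± 0.057 higher in the compound mutant than in Cilk1-/- (adjusted p = 0.0150, adjusted p = 0.191 with the block), under the fold threshold.

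Among 13 genes of procollagen processing and crosslinking, Pcolce2, an enhancer of the procollagen C-proteinase, was higher in the compound mutant than in both other genotypes. Pcolce2 was listed at 1.96, 1.97, 2.24 and 2.06 in wild type, at 1.80, 1.93, 1.61 and 1.78 in Cilk1-/- and at 2.97, 2.77 and 2.46 in the compound mutant. The compound mutant was above all other libraries, and Cilk1-/- was below all wild-type libraries. The differences were 0.68 ± 0.12 from wild type (adjusted p = 0.0159 in limma) and 0.95 ± 0.12 from Cilk1-/- (adjusted p = 0.00915), and with the block these adjusted p-values were 0.118 and 0.120. In fits of only the genotypes compared they were 0.0851 and 0.0866, with a term for the extraction text 0.163 and 0.147, and without wild-type replicate 4 the first was 0.0533. The procollagen N-proteinase genes Adamts14, in Cilk1-/-, and Adamts3, in the compound mutant, were higher than wild type by 0.37 ± 0.079 (adjusted p = 0.0418) and 0.50 ± 0.12 (adjusted p = 0.0371), and the crosslinking enzyme gene Loxl1 was lower in the compound mutant by -0.41 ± 0.095 (adjusted p = 0.0356), all under the fold threshold and with adjusted p-values from 0.148 to 0.186 with the block. Loxl4 had the next largest difference between the compound mutant and Cilk1-/-, 0.57 ± 0.25, with an adjusted p of 0.212.

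Among 9 collagen receptor genes, Itga11, the integrin subunit by which mesenchymal cells bind fibrillar collagen, was higher in both mutants. Itga11 was listed at 2.16, 1.76, 2.04 and 1.95 in wild type, at 2.47, 3.10, 2.85 and 2.88 in Cilk1-/- and at 2.88, 2.33 and 2.79 in the compound mutant. All 7 mutant libraries were above all 4 wild-type libraries, and the mutants overlapped each other. The differences from wild type were 0.85 ± 0.15 (adjusted p = 0.0245 in limma) in Cilk1-/- and 0.69 ± 0.17 (adjusted p = 0.0377) in the compound mutant, and with the block the adjusted p-values were 0.151 and 0.163. The first call was lost without wild-type or Cilk1-/- replicate 2, 3 or 4, up to an adjusted p of 0.0940, and with a term for the extraction text (adjusted p = 0.0553). The second was lost in 8 of 11 fits that left out 1 library, namely any wild-type library, Cilk1-/- replicate 3 or 4, or compound mutant replicate 1 or 3, up to 0.101, as well as with that term (adjusted p = 0.250) and in a fit of only wild type and the compound mutant (adjusted p = 0.101). Itga10, a receptor of chondrocytes, was 3.24, 3.14 and 2.13 in the compound mutant against 1.94 to 2.52 in the other 8 libraries, and its difference from Cilk1-/-, 0.61 ± 0.24, had an adjusted p of 0.164. None of 5 secretion genes and 10 degradation genes had an adjusted p under 0.05 in limma in any of the 3 comparisons. At an unadjusted p under 0.05, the secretion list had 1 gene in each comparison and the degradation list had 3, 0 and 1. The shares of all genes were 20.7%, 26.7% and 23.2%.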

How the data were processed

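RNA of maxillary molar tooth germs at E14.5 had been sequenced as poly-A libraries in 4 wild-type, 4 Cilk1-/- and 3 compound mutant libraries. According to the submitters' processing notes, HISAT2 2.0.5, featureCounts 1.5.0-p3 and the build mm10 were used. The values the authors deposited are on a log2 scale, taken here as log2(FPKM + 1). In 257 genes, 0 of them collagen genes, some library had a value below 0, down to -0.45, and how such values arose is not given in the sources used here. The depth is unknown, and no counts were used.

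The deposited values were fitted as they stand with limma 3.58.1 (trend and robust, all 16755 genes, all 11 libraries, Benjamini-Hochberg adjustment over all genes), after a check of the code on simulated data. Genes with an adjusted p under 0.05 and a fold of at least 1.5 on the deposited scale were called. Alternatives were the replicate block, a term for the extraction text, fits of only those genotypes being compared, other thresholds, a filter on low values, a pseudocount of 0.1, median centring, quantile normalisation, limma without trend and robust, and leaving out each library in turn.

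Wild-type and Cilk1-/- libraries of the same number were taken as pairs. Their deviations mirrored each other over all genes, but in genes with 1 pair at 0, and that pair left out, same-numbered libraries had correlations of 0.561, 0.558, 0.583 and 0.298 over 29, 72, 67 and 84 genes. Compound mutant libraries had correlations of 0.232, 0.00309 and 0.292 with the pair of their number. Nothing ties each library to its own litter, so p-values measure the spread between these samples.

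The genes and lists were chosen with earlier results of these data known. Values in every library are given for collagen genes with an adjusted p under 0.05, the highest wild-type mean of their class, 1 of the 3 largest differences of a comparison or 1 of the 3 widest ranges in the compound mutant. Named pathway genes have an adjusted p under 0.05 or 1 of the 3 largest differences of a comparison. Motifs, start regions, differences within an extraction text and other named genes were chosen after their values were seen. Marker sums are over the listed genes of each list, which for chondrocytes were 12 of 14, for osteoblasts 10 of 11 and for skeletal muscle 15 of 16.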

Additional observations from a re-analysis of the deposited data

Results flagged for a closer look

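In 86 groups of 4 libraries (43 collagen genes in wild type and in Cilk1-/-), 2 groups had a library set apart by more than Dixon's 95% critical value, where chance gives about 1 in 20, or 4.3 of 86. Cilk1-/- replicate 2 was listed at 0.0471 for Col4a3, a minor type IV chain, and the next highest Cilk1-/- library at 0.0069. Wild-type replicate 1 was listed at 0.772 for Col6a4 and the next highest wild-type library at 0.524. Without wild-type replicate 1 the difference of Cilk1-/- from wild type in Col6a4 no longer passed 0.05 after adjustment in limma, nor did it without any of the other wild-type and Cilk1-/- libraries.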

How the results depend on the processing

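With the replicate number as a block, which uses the pairing of wild-type and Cilk1-/- libraries, the collagen genes called were 0 in the compound mutant against wild type and 0 against Cilk1-/-, and the pathway genes called were 0, 0 and 0 in the 3 comparisons (Cilk1-/- and the compound mutant against wild type, then the compound mutant against Cilk1-/-). The same zeros came from a block that places the compound mutant libraries with pair 4, whose extraction text they share, and among all genes the block called 4, 26 and 2 in place of 62, 209 and 91, the second placement 4, 0 and 0, the term for the extraction text 37, 18 and 1, fits of only the genotypes compared 130, 34 and 1, and a pseudocount of 0.1 123, 547 and 294. A term for the extraction text gave 0 and 0 collagen genes in the compound mutant comparisons and 1, 0 and 0 pathway genes. In fits of only the genotypes compared, 2 collagen genes were called in Cilk1-/- (Col9a1 and Col16a1), 0 and 0 in the compound mutant, and 0 and 0 pathway genes in the compound mutant. Without a fold threshold 1 and 3 collagen genes passed against wild type and 2 pathway genes against Cilk1-/-, and with an unadjusted p and the fold threshold 1, 6 and 6 collagen genes and 2 pathway genes against Cilk1-/-. Among all genes the first of these settings passed 409, 1102 and 558, and the second 126, 499 and 350. The call of Col6a6 against Cilk1-/- was lost with a filter at a mean of at least 1, a pseudocount of 0.1 and quantile normalisation. That filter moved the median collagen difference between the mutants to -0.12, with fewer genes by construction. A pseudocount of 0.1 gave 1 and 2 collagen genes against wild type and a median of 0.22 in the compound mutant, and median centring and quantile normalisation each gave 1 pathway gene in Cilk1-/-.

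Leaving out each library in turn gave 0 to 1, 0 to 7 and 1 to 7 collagen genes called in the 3 comparisons, medians of 0.12 to 0.21, 0.029 to 0.12 and -0.13 to 0.082, and 0 to 2, 1 to 6 and 1 to 4 pathway genes. The 7 called against wild type without compound mutant replicate 2 were Col9a1, Col9a2, Col9a3, Col14a1, Col16a1, Col24a1 and Col27a1, and the 7 called against Cilk1-/- without replicate 3 were Col2a1, Col3a1, Col4a6, Col11a2, Col12a1, Col17a1 and Col24a1. Among all genes 671 and 360 were called in these comparisons. No collagen gene was called against wild type by limma without wild-type replicate 2, 3 or 4, with the adjusted p-values of Col24a1 at most 0.0874. Directions were followed only for genes with an adjusted p under 0.05, the 3 largest differences of a comparison and the cartilage collagens. Among those, directions changed only in Col11a1 and Col11a2. Changes of direction in the other collagen and pathway genes were not followed. In Cilk1-/- against wild type Col11a1 was 0.034 after quantile normalisation and ran from -0.053 to 0.015 over the fits without 1 library, and Col11a2 ran from -0.33 to 0.20. In the compound mutant Col11a1 ran from -0.21 to 0.46 against wild type and from -0.20 to 0.47 against Cilk1-/-. Apart from the fits that show their own construction (fewer samples or genes), the cause was not tested. The depth of the libraries is unknown, so no limit from depth can be given.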
